A study of Citrullus lanatus with 36 samples.

Results

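The alcohol dehydrogenase (ADH) and pyruvate decarboxylase (PDC) genes of melon flesh were taken by the wording of the gene descriptions that came with the expression table. The words alcohol dehydrogenase or pyruvate decarboxylase, without cinnamyl or mannitol, matched 16 of 25121 named genes, and the 10 with the highest mean over all 36 libraries were kept. These were 2 PDC genes and 8 ADH genes. The members were chosen by this mean level, which is therefore given as a description: the means ran from 2675 FPKM (fragments scaled to transcript length in kilobases and to library size) for MELO3C009145.2 down to 0.210 FPKM for MELO3C011043.2, and the next gene, MELO3C009885.2, had 0.120 FPKM.

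PDC is a thiamine diphosphate-dependent enzyme of the cytosol that splits carbon dioxide from pyruvate and leaves acetaldehyde. ADH then reduces acetaldehyde to ethanol and regenerates NAD+, the pair of steps known as ethanolic fermentation, which plant tissues use when oxygen is short. In ripening fruit, ADH also reduces longer aldehydes derived from amino acids and fatty acids, and the resulting alcohols are the substrates of alcohol acyltransferases, which form the esters of melon aroma. The ADH family is mixed: class-3 enzymes act on a glutathione adduct of formaldehyde and on S-nitrosoglutathione, and for several members named only by likeness the substrate in melon is not known from the sources used here.

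RNA was sequenced from the flesh of fruits of the oriental melon line BY9H, called WT, of *Cmnor* fruits and of *CmNOR/Cmnor* fruits. *Cmnor* carries a CRISPR/Cas9 deletion in the NAC domain of the ripening transcription factor NOR on both copies and is 1 mutant line, and *CmNOR/Cmnor* is the first-generation cross of that line with BY9H and carries 1 altered copy. Flesh was sampled during ripening 33, 36 and 39 d after pollination (DAP), and once more in fruits stored for 6 d. By the study's text the stored fruits were picked at 36 DAP, and storage below means stored fruits against 36 DAP. No fruits left on the plant to the same age were sequenced. Storage and further ageing therefore cannot be told apart. There were 3 libraries for each genotype and stage, 36 in all. Nothing in the labels says that the libraries of a group came from separate fruits, so that p-values measure the spread between these samples, which may be technical. For stored fruits the study's methods give 3 melons per genotype and time, and its expression captions name 3 independent replicates. Neither states that each library was 1 fruit. The organism in the labels is watermelon (*Citrullus lanatus*), whereas the gene identifiers and the study's text are those of melon. No level is given for *CmNOR* itself, since the sources name no gene identifier for it.

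Depth, estimated from the steps between low FPKM values, lay between 17.8 and 36.9 (in units of 1e+06 fragments) per library, so that 1 fragment in a transcript of 1 kb was worth 0.0271 to 0.0563 FPKM. Ripening markers of the flesh (20 genes for phytoene synthase and 1-aminocyclopropane-1-carboxylate oxidase) summed to 7978 to 17281 FPKM in WT and *CmNOR/Cmnor* libraries and to 680 to 1637 FPKM in *Cmnor*. The 20 chlorophyll a/b-binding genes moved the same way (9813 to 23824 against 446 to 1208 FPKM), and the 22 phloem protein genes moved the opposite way (54.0 to 502 FPKM in WT, 75.7 to 3147 in *CmNOR/Cmnor* and 2558 to 11421 in *Cmnor*). The 23 epidermis genes summed to at most 287 FPKM but moved with the groups, from 30.2 ± 7.33 FPKM in WT and 25.4 ± 1.23 in *CmNOR/Cmnor* to 143 ± 14.5 in *Cmnor* at 36 DAP, and to 222 ± 59.3, 99.0 ± 10.5 and 99.2 ± 2.04 FPKM after storage. The 13 seed genes summed to at most 110 FPKM, and 39 heat shock protein genes reached 4030 to 10100 FPKM in the 3 WT libraries at 36 DAP against 787 to 2874 elsewhere. Each marker gene was above 0 in at least 1 library, and the part of these marker genes in the results was not tested. In bulk flesh, fewer cells of a type and less RNA per cell cannot be told apart.

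FPKM is a share of each library, and the median log2 difference of 15407 expressed genes (mean of at least 1 FPKM) between *Cmnor* and WT was 0.52 at 33 DAP, 0.49 at 36 DAP, 0.31 at 39 DAP and 0.45 after storage. A *Cmnor* difference is therefore read against that shift, whereas the shifts between *CmNOR/Cmnor* and WT were between -0.09 and -0.01. Folds below divide 1 group's mean FPKM by the other's and carry an SD propagated from the spread of both, and log2 differences with their standard errors are on the log2(FPKM + 1) scale of limma, which understates the change of low genes. All adjusted p are from limma with Benjamini-Hochberg adjustment over 24901 genes.

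MELO3C009145.2, annotated as pyruvate decarboxylase 1, made up nearly all PDC transcript of WT and *CmNOR/Cmnor* flesh and was far lower in *Cmnor* fruits. In WT flesh its libraries read 4285, 4193 and 3968 FPKM at 33 DAP. The *CmNOR/Cmnor* libraries read 3725, 3245 and 3847 FPKM at the same stage, and the *Cmnor* libraries 31.9, 29.2 and 31.6 FPKM. Every *Cmnor* library lay far below the others, and the gene ranked between 9 and 16 among all genes by level in WT and *CmNOR/Cmnor* libraries at 33 DAP but between 4193 and 4662 in *Cmnor*. The level in *Cmnor* was 134 ± 8.37-fold lower than in WT (SD, n = 3), a log2 difference of -7.02 ± 0.11 (adjusted p = 6.8e-27). The gene was not silent in *Cmnor* at later stages, where it ranked between 1840 and 2348 at 36 DAP, 1049 and 1435 at 39 DAP and 330 and 351 after storage.

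For MELO3C009145.2 the gap narrowed through ripening. The *Cmnor* level climbed at both steps, while the WT level fell from 33 to 36 DAP only, and its libraries of 36 and 39 DAP overlapped. At 36 DAP WT libraries read 2032, 2418 and 2088 FPKM and *Cmnor* libraries 57.4, 70.1 and 70.6 FPKM, a 33.0 ± 4.88-fold difference. At 39 DAP the values were 2130, 2209 and 2436 FPKM in WT and 89.9, 120 and 96.6 FPKM in *Cmnor*, 22.1 ± 3.74-fold apart. No group overlapped the other, and both differences passed the test (log2 difference -5.02 ± 0.11, adjusted p = 5.1e-24, and -4.46 ± 0.11, adjusted p = 5.4e-23). In WT the fall from 33 to 36 DAP was 1.90 ± 0.197-fold (adjusted p = 1.6e-07), and in *Cmnor* the gene rose 2.14 ± 0.263-fold over the same days (adjusted p = 3.8e-09) and 1.55 ± 0.295-fold from 36 to 39 DAP (adjusted p = 3.2e-05).

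MELO3C009145.2 rose with storage in all 3 genotypes, from very different levels. After 6 d WT libraries read 6501, 6554 and 6372 FPKM, 2.97 ± 0.287-fold above 36 DAP (log2 difference 1.57 ± 0.11, adjusted p = 3.2e-12). *CmNOR/Cmnor* libraries read 7243, 8091 and 9100 FPKM, up 3.47 ± 0.436-fold (adjusted p = 2.2e-13), and the gene was among the 8 most abundant transcripts of every stored WT and *CmNOR/Cmnor* library. *Cmnor* libraries read 232, 245 and 243 FPKM, up 3.63 ± 0.423-fold (adjusted p = 4.2e-14) and still 27.0 ± 0.866-fold below WT (adjusted p = 1.0e-23). The storage response of *Cmnor* minus that of WT was 0.28 on the log2 scale, with a 95% confidence interval of -0.04 to 0.59 (adjusted p = 0.15).

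Between *CmNOR/Cmnor* and WT, MELO3C009145.2 did not pass the test at any stage in the model used throughout. Folds were 1.15 ± 0.111 lower at 33 DAP, 1.08 ± 0.117 higher at 36 DAP and 1.11 ± 0.138 higher at 39 DAP (adjusted p of 0.21, 0.67 and 0.42). After storage the lowest *CmNOR/Cmnor* library stood above the highest WT library, 1.26 ± 0.145-fold in the means, with an adjusted p of 0.0503. The difference passed with upper-quartile scaling (adjusted p = 0.025) and with scaling to the same median (adjusted p = 0.046). It also passed with a pseudocount of 0.1, the filter of 1 FPKM in 3 libraries, a replicate block and no variance trend. With only the 6 libraries compared it did not pass. Ordered by mean, the 4 *Cmnor* groups came first, each below the next without overlap, followed by WT and *CmNOR/Cmnor* at 36 and 39 DAP (2179 to 2505 FPKM), whose neighbours overlapped, and then by 33 DAP and storage.

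The second PDC gene, MELO3C007227.2, was expressed at a far lower level in WT and *CmNOR/Cmnor*. As deposited it was not lower in *Cmnor* than in WT, but this direction depended on the scaling at all stages except 39 DAP. In WT it averaged 50.0 ± 3.14 FPKM at 33 DAP, 79.9 ± 4.23 at 36 DAP, 74.8 ± 1.48 at 39 DAP and 113 ± 5.03 after storage (SD, n = 3). In *CmNOR/Cmnor* the values were 33.1 ± 3.37, 58.8 ± 2.20, 56.3 ± 2.54 and 97.8 ± 16.8 FPKM, below WT without overlap at all 3 ripening stages. There it was lower by 1.51 ± 0.181-fold, 1.36 ± 0.0880-fold and 1.33 ± 0.0654-fold (adjusted p = 1.6e-05, 8.8e-04 and 0.0011), whereas the stored groups overlapped (adjusted p = 0.13). At 39 DAP the difference did not pass with scaling to the same median (-0.30, adjusted p = 0.057).

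*Cmnor* libraries of MELO3C007227.2 read 76.2, 65.9 and 76.0 FPKM at 33 DAP, 84.3, 85.7 and 92.4 at 36 DAP, 130, 113 and 114 at 39 DAP and 174, 151 and 166 after storage. Each set lay above WT, by 1.45 ± 0.149-fold, 1.09 ± 0.0793-fold, 1.59 ± 0.131-fold and 1.45 ± 0.122-fold. All but 36 DAP passed the test (log2 differences 0.53, 0.66 and 0.53, each ± 0.09, adjusted p = 7.6e-06, 2.2e-07 and 8.4e-06), although at 33 DAP and after storage this is about the shift of the expressed genes and the sign turned with scaling to the same median (-0.11 and -0.14). At 36 DAP, where the difference as deposited was 0.13 ± 0.09 (adjusted p = 0.22), both scalings gave a lower level in *Cmnor* (-0.27 with upper-quartile scaling and -0.51 with scaling to the same median). The gene thus showed no loss in *Cmnor* like that of MELO3C009145.2. It rose with storage in all genotypes, by 1.41 ± 0.0978-fold in WT, 1.66 ± 0.292-fold in *CmNOR/Cmnor* and 1.87 ± 0.163-fold in *Cmnor* (adjusted p = 5.1e-05, 2.2e-07 and 2.5e-09).

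**Figure D1:**
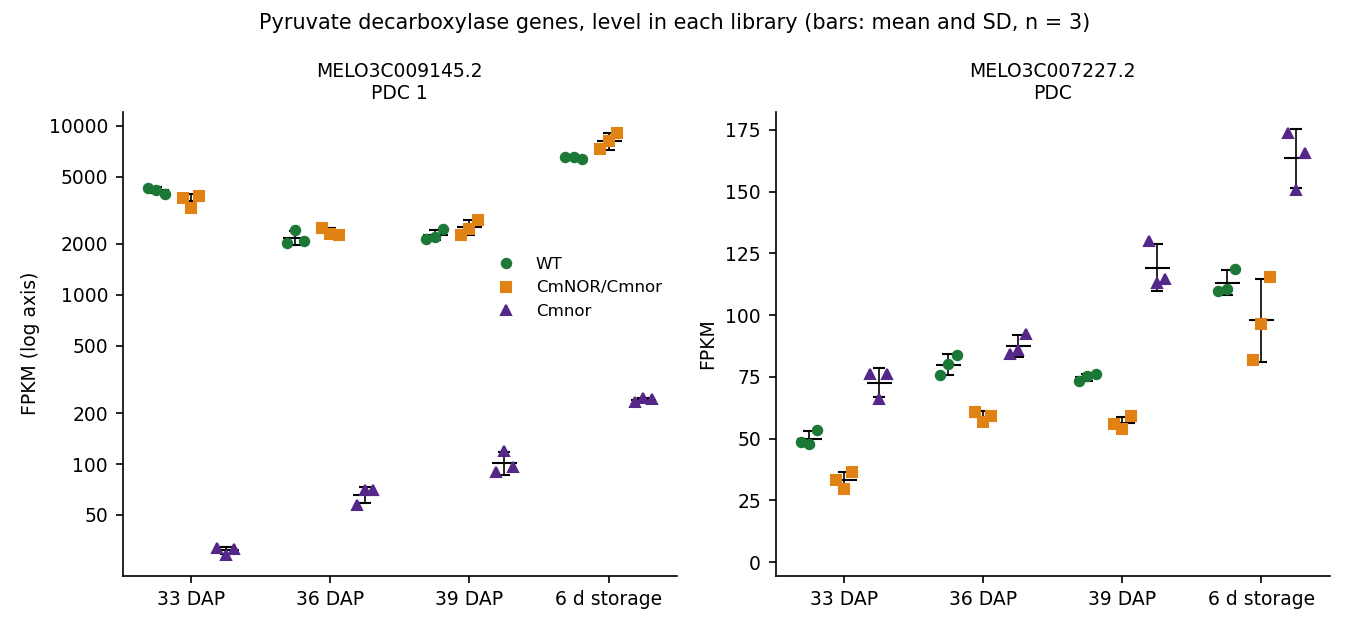
Levels of both pyruvate decarboxylase genes in each library, in FPKM, by stage and genotype (left on a log axis, right on a linear axis); points are the 3 libraries of a group, horizontal bars their mean and vertical bars the SD. The *Cmnor* libraries of MELO3C009145.2 sit between 29.2 and 245 FPKM and all others between 2032 and 9100, whereas those of MELO3C007227.2 reach the highest levels, up to 174 FPKM.

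Of the summed PDC level, MELO3C009145.2 made up 96.1 to 99.1% in each WT and *CmNOR/Cmnor* library. In *Cmnor* its share was 29.9 ± 0.728% at 33 DAP, 42.9 ± 2.25% at 36 DAP, 46.0 ± 5.31% at 39 DAP and 59.5 ± 2.36% after storage. The 2 genes encode proteins of the same family with the same best annotated match, and the sources do not state how reads shared by such copies were assigned, so that the division between them is uncertain.

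Among the ADH genes, MELO3C023685.2, annotated as alcohol dehydrogenase 1, was the most abundant and was higher in *Cmnor* than in WT at each stage. At 33 DAP WT libraries read 69.4, 82.3 and 77.7 FPKM and *Cmnor* libraries 184, 162 and 183 FPKM. At 36 DAP the values were 64.0, 61.9 and 76.6 against 130, 184 and 183 FPKM. The groups did not overlap at either stage, with *Cmnor* 2.31 ± 0.255-fold and 2.45 ± 0.544-fold higher (log2 difference 1.20 ± 0.15, adjusted p = 3.8e-08, and 1.27 ± 0.15, adjusted p = 1.3e-08). At 39 DAP WT read 157, 147 and 166 FPKM and *Cmnor* 516, 587 and 622 FPKM, 3.68 ± 0.409-fold apart (log2 difference 1.87 ± 0.15, adjusted p = 5.9e-12). These differences exceeded the shift of the expressed genes, and *Cmnor* stayed above WT at all stages with upper-quartile scaling (0.80 to 1.59) and with scaling to the same median (0.56 to 1.47).

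In the flesh of *CmNOR/Cmnor* fruits, MELO3C023685.2 lay below WT during ripening, the opposite side from *Cmnor*. Its libraries read 45.5, 34.7 and 44.6 FPKM at 33 DAP, 58.8, 51.1 and 50.4 at 36 DAP and 66.8, 56.5 and 64.1 at 39 DAP. None of these reached the WT values of the same stage, and the level was lower by 1.84 ± 0.307-fold at 33 DAP (log2 difference -0.87 ± 0.15, adjusted p = 5.8e-05) and by 2.50 ± 0.262-fold at 39 DAP (-1.31 ± 0.15, adjusted p = 9.9e-08), while 36 DAP did not pass the test (1.26 ± 0.185-fold, adjusted p = 0.14). The rise from 36 to 39 DAP was 2.32 ± 0.308-fold in WT (adjusted p = 3.4e-07), 1.17 ± 0.142-fold in *CmNOR/Cmnor* (adjusted p = 0.35) and 3.47 ± 0.728-fold in *Cmnor* (adjusted p = 7.5e-11). *Cmnor* was 9.20 ± 1.17-fold above *CmNOR/Cmnor* at 39 DAP (adjusted p = 5.6e-17), the widest genotype gap of this gene.

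After storage the WT libraries of MELO3C023685.2 read 221, 236 and 225 FPKM, those of *CmNOR/Cmnor* 170, 184 and 277 FPKM and those of *Cmnor* 825, 670 and 816 FPKM. The WT and *CmNOR/Cmnor* sets overlapped after storage (1.08 ± 0.301-fold, adjusted p = 0.71), and *Cmnor* remained 3.39 ± 0.398-fold above WT (adjusted p = 2.2e-11). Against 36 DAP the rise was 3.36 ± 0.414-fold in WT, 3.93 ± 1.14-fold in *CmNOR/Cmnor* and 4.66 ± 1.02-fold in *Cmnor* (adjusted p = 1.8e-10, 2.2e-11 and 5.5e-13). The storage response of *Cmnor* minus that of WT was 0.48 with a 95% confidence interval of 0.06 to 0.91 and did not pass the adjusted test (adjusted p = 0.058). In order of mean, the 3 *CmNOR/Cmnor* ripening groups were lowest (41.6 to 62.5 FPKM), overlapping WT at 36 DAP, and *Cmnor* at 39 DAP and after storage stood alone at the top (575 and 770 FPKM).

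The pair of genes annotated as alcohol dehydrogenase-like 7 moved in opposite directions in *Cmnor*, although they are neighbours on chromosome 3. In the coordinates of the table, which the study's text places on the Melon (DHL92) v3.6.1 genome, MELO3C026553.2 spans chr3:24852658-24856344 and MELO3C026554.2 spans chr3:24865113-24868989, both on the minus strand and 8768 bp apart. A further copy, MELO3C026552.2 at chr3:24842190-24850465, lies 2192 bp before the first and is outside the 10 genes, with a mean of 0.0867 FPKM and at most 0.246 FPKM in any library. The table gives whole gene spans, so that exons and untranslated regions are not distinguished here.

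MELO3C026554.2 was the higher of the pair. WT libraries read 94.0, 78.8 and 84.7 FPKM at 33 DAP and 87.4, 78.4 and 97.0 at 36 DAP, and *Cmnor* libraries 239, 284 and 251 FPKM and 507, 556 and 487 FPKM. *Cmnor* was 3.005 ± 0.381-fold higher at 33 DAP and 5.90 ± 0.749-fold higher at 36 DAP without overlap (log2 difference 1.58 ± 0.09, adjusted p = 1.3e-14, and 2.55 ± 0.09, adjusted p = 3.5e-19). At 39 DAP the gap was 2.83 ± 0.184-fold (203, 214 and 194 FPKM against 75.1, 68.8 and 72.2 in WT, adjusted p = 4.8e-14). After storage it was 11.3 ± 1.72-fold, since WT fell to 46.8, 35.6 and 38.8 FPKM and *Cmnor* read 474, 429 and 467 FPKM (log2 difference 3.48 ± 0.09, adjusted p = 3.3e-22). *Cmnor* stayed above WT at all 4 stages with both scalings (0.94 to 3.07).

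The storage response of MELO3C026554.2 accordingly differed between the genotypes. The level fell 2.17 ± 0.386-fold in WT (adjusted p = 1.9e-10) and 2.06 ± 0.142-fold in *CmNOR/Cmnor* (adjusted p = 6.8e-10), against 1.13 ± 0.0983-fold in *Cmnor* (adjusted p = 0.13). The difference between *Cmnor* and WT was itself tested and was 0.93 ± 0.13 on the log2 scale (adjusted p = 1.4e-06). *CmNOR/Cmnor* stayed within 1.03 to 1.17-fold of WT at each stage (adjusted p of 0.086 or higher), with 83.3, 100.9 and 87.7 FPKM at 33 DAP and 44.8, 41.9 and 44.6 FPKM after storage. At 39 DAP its libraries read 91.5, 78.8 and 83.2 FPKM, above all WT libraries, and it passed as higher with both scalings.

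MELO3C026553.2, the neighbour, was far lower in *Cmnor*. Its libraries read 35.5, 37.7 and 38.4 FPKM in WT at 33 DAP, 24.6, 23.6 and 24.7 in *CmNOR/Cmnor* and 4.38, 3.89 and 3.57 in *Cmnor*. At 36 DAP they read 32.5, 27.6 and 30.0 FPKM in WT, 19.0, 18.1 and 20.5 in *CmNOR/Cmnor* and 0.857, 1.03 and 0.563 in *Cmnor*. The 3 genotypes formed separate ranges at both stages, with *CmNOR/Cmnor* between the others. *Cmnor* was lower than WT by 9.43 ± 1.05-fold at 33 DAP, 36.8 ± 11.02-fold at 36 DAP, 12.6 ± 0.835-fold at 39 DAP and 9.47 ± 2.25-fold after storage (log2 difference -2.95, -4.10, -3.25 and -3.02, each ± 0.11, adjusted p = 6.6e-19, 5.5e-22, 8.7e-20 and 3.4e-19). Both scalings gave a lower level at each stage as well (-4.46 to -3.30).

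MELO3C026553.2 was also the only one of the 10 genes that passed the test between *CmNOR/Cmnor* and WT at all 4 stages. It was lower in *CmNOR/Cmnor* by 1.53 ± 0.0729-fold, 1.56 ± 0.162-fold, 1.65 ± 0.0959-fold and 1.68 ± 0.343-fold from 33 DAP to storage, with no overlap at any stage. The log2 differences were -0.59, -0.62, -0.70 and -0.74, each ± 0.11 (adjusted p = 2.1e-04, 1.9e-04, 2.2e-05 and 3.9e-05). The last of these did not pass the test when only the 6 libraries compared were fitted. At 39 DAP the libraries read 32.8, 36.2 and 36.0 FPKM in WT, 21.6, 21.0 and 20.9 in *CmNOR/Cmnor* and 2.71, 2.73 and 2.90 in *Cmnor*, and after storage 49.5, 44.9 and 42.6, then 24.3, 33.2 and 24.1, then 4.52, 6.02 and 3.92.

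The ratio of MELO3C026554.2 to MELO3C026553.2 sums up the pair. It was 2.31 ± 0.295 in WT at 33 DAP, 2.92 ± 0.279 at 36 DAP, 2.07 ± 0.203 at 39 DAP and 0.883 ± 0.0794 after storage, so that the order of the pair turned in stored WT flesh. In *CmNOR/Cmnor* it was 3.74 ± 0.473, 4.70 ± 0.298, 3.99 ± 0.242 and 1.65 ± 0.335. In *Cmnor* it was 65.9 ± 9.996, 666 ± 174, 73.5 ± 5.79 and 98.5 ± 24.6. Reads of these copies may be shared, and the way they were divided is not stated. For comparison, MELO3C026555.2, an uncharacterized gene 1707 bp past MELO3C026554.2, averaged 11.3 FPKM in WT flesh and 18.9 FPKM in *Cmnor* flesh of 36 DAP. The gene after it, MELO3C026557.2, a probable carboxylesterase, averaged 2.60 and 3.57 FPKM at 36 DAP. At the other stages MELO3C026557.2 was lower in *Cmnor*. WT averaged 27.2 FPKM against 0.466 in *Cmnor* at 33 DAP, 1.60 against 0.637 at 39 DAP and 2.05 against 0.177 after storage.

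**Figure D2:**
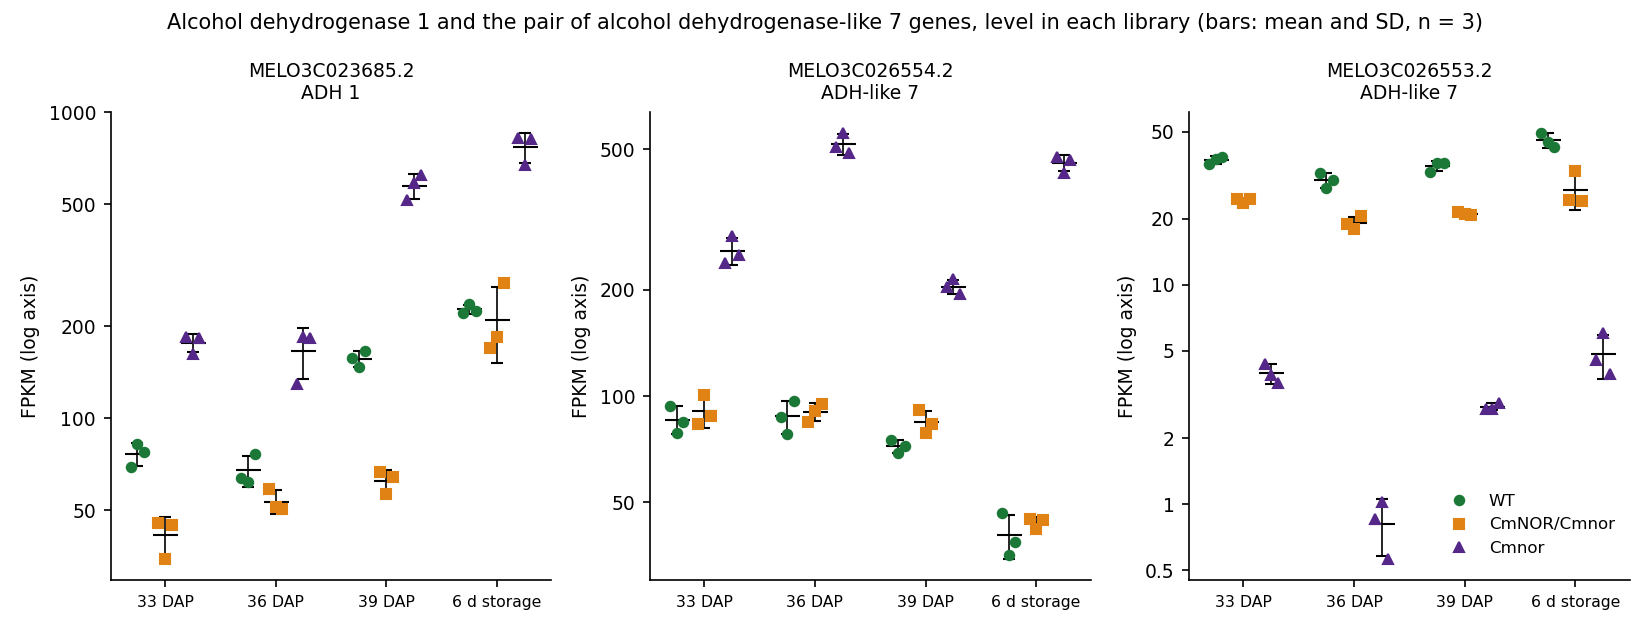
Levels of alcohol dehydrogenase 1 and of both alcohol dehydrogenase-like 7 genes in each library, in FPKM on log axes, by stage and genotype; points are the 3 libraries of a group, horizontal bars their mean and vertical bars the SD. *Cmnor* libraries lie above the others for MELO3C026554.2 (194 to 556 FPKM) and below them for its neighbour MELO3C026553.2 (0.563 to 6.02 FPKM), and for MELO3C023685.2 the *CmNOR/Cmnor* libraries lie below WT up to 39 DAP.

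For a pair of genes the best annotated match is a class-3 enzyme, the name of glutathione-dependent formaldehyde dehydrogenases that also reduce S-nitrosoglutathione. The enzyme number of that activity is also given to MELO3C026554.2, MELO3C026553.2 and MELO3C011043.2, which are matched to other members of the family by name. MELO3C022399.2 averaged 63.4 FPKM over all libraries. At 33 DAP it averaged 64.7 ± 2.97 FPKM in WT, 64.4 ± 6.12 in *CmNOR/Cmnor* and 63.5 ± 3.63 in *Cmnor*, and after storage 51.0 ± 1.09, 53.0 ± 2.22 and 49.0 ± 1.45 FPKM. WT overlapped both other genotypes there (adjusted p of 0.52 or higher), although both scalings placed *Cmnor* below WT at these stages (-0.42 to -0.71). At 39 DAP WT fell to 38.0, 36.6 and 35.2 FPKM, while *CmNOR/Cmnor* read 54.2, 62.8 and 62.2 and *Cmnor* 68.5, 75.6 and 69.5. Here WT was the low group, by 1.63 ± 0.145-fold against *CmNOR/Cmnor* (log2 difference 0.69 ± 0.07, adjusted p = 1.2e-08) and 1.94 ± 0.129-fold against *Cmnor* (0.94 ± 0.07, adjusted p = 1.0e-12), also with both scalings.

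At 36 DAP MELO3C022399.2 read 106, 122 and 116 FPKM in *Cmnor*, its highest group, against 70.1, 70.9 and 78.1 in WT (1.57 ± 0.147-fold, log2 difference 0.64 ± 0.07, adjusted p = 2.4e-09), a difference that scaling to the same median reduced to 0.00. *CmNOR/Cmnor* was 1.22 ± 0.0972-fold lower than WT at 36 DAP (60.5, 62.3 and 56.3 FPKM, adjusted p = 0.0034), which did not pass with scaling to the same median or with the 6 libraries compared alone. From 36 DAP to storage the gene fell 1.43 ± 0.0918-fold in WT (adjusted p = 6.0e-07) and 2.34 ± 0.180-fold in *Cmnor* (adjusted p = 2.0e-14), and the responses differed by -0.70 ± 0.10 (adjusted p = 8.1e-07).

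MELO3C003251.2, whose best annotated match is also a class-3 enzyme, stayed between 37.1 and 71.6 FPKM in all libraries. In WT it averaged 47.3 ± 2.63, 47.1 ± 4.36, 38.6 ± 1.27 and 45.7 ± 3.04 FPKM from 33 DAP to storage, and in *Cmnor* 52.4 ± 3.83, 55.1 ± 0.354, 65.3 ± 3.38 and 69.9 ± 1.59 FPKM. *Cmnor* was higher by 1.69 ± 0.104-fold at 39 DAP (log2 difference 0.74 ± 0.07, adjusted p = 6.3e-11) under every scaling. As deposited it was also higher by 1.17 ± 0.109-fold at 36 DAP and 1.53 ± 0.107-fold after storage (adjusted p = 0.0034 and 4.0e-09). At 36 DAP the sign turned with both scalings and *Cmnor* passed as lower, and after storage it turned with scaling to the same median and did not pass. At 33 DAP the difference did not pass as deposited, and *Cmnor* passed as lower with both scalings. *CmNOR/Cmnor* was lower than WT by 1.14 ± 0.120-fold at 33 DAP with overlapping libraries (log2 difference -0.19 ± 0.07, adjusted p = 0.040) and by 1.16 ± 0.0964-fold after storage (-0.21 ± 0.07, adjusted p = 0.036). Both calls were lost with either scaling and without any of several single libraries, the first without WT replicate 2 or 3 or *CmNOR/Cmnor* replicate 1 or 2 at 33 DAP (-0.15, -0.20, -0.14 and -0.17) and the second without replicate 1 or 2 of either stored group (-0.17 and -0.20 for WT, -0.23 and -0.17 for *CmNOR/Cmnor*).

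MELO3C019503.2 is described as a zinc-binding alcohol dehydrogenase domain protein, but its best annotated match is a pulegone reductase, an enzyme of mint monoterpene synthesis, and its domain annotation names a short-chain dehydrogenase, so that the label alcohol dehydrogenase is not borne out for it. It stayed between 26.9 and 54.2 FPKM in all 36 libraries. *Cmnor* exceeded WT by 1.26 ± 0.0452-fold at 33 DAP, 1.23 ± 0.126-fold at 39 DAP and 1.24 ± 0.0645-fold after storage (log2 differences 0.33, 0.29 and 0.31, adjusted p = 3.0e-04, 0.0010 and 6.6e-04). Each was below the shift of the expressed genes (0.52, 0.31 and 0.45) but above the median of all tested genes (0.21, 0.06 and 0.14). Scaling to the same median turned all 3 signs (-0.30, -0.09 and -0.34). At 36 DAP the gene did not pass as deposited, and it passed as lower in *Cmnor* with both scalings. It did not pass the test between *CmNOR/Cmnor* and WT at any stage (adjusted p of 0.17 or higher). The fall with storage in WT (1.17 ± 0.121-fold, log2 difference -0.22 ± 0.07, adjusted p = 0.018) did not pass without WT replicate 3 at 36 DAP (-0.14) or WT replicate 3 after storage (-0.20), and that in *CmNOR/Cmnor* (1.15 ± 0.156-fold, -0.20 ± 0.07, adjusted p = 0.034) did not pass without replicate 2 or 3 at 36 DAP or replicate 1 after storage (-0.16, -0.19 and -0.11).

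MELO3C002189.2, annotated as alcohol dehydrogenase-like 6, was weakly expressed, from 3.64 to 8.63 FPKM, and most neighbouring groups in its order overlapped. It passed the test against WT in stored *Cmnor* flesh, with 6.77, 6.89 and 6.26 FPKM against 3.66, 3.91 and 5.10 (1.57 ± 0.297-fold, log2 difference 0.56 ± 0.13, adjusted p = 4.1e-04), a call lost with upper-quartile scaling (0.21) and with scaling to the same median (0.00). At 33 DAP the difference of MELO3C002189.2 in *Cmnor* was -0.12 ± 0.13 (adjusted p = 0.43), and it passed as lower with both scalings (-0.46 and -0.66), as it did at 36 DAP with scaling to the same median (-0.39). In *CmNOR/Cmnor* at 36 DAP the gene read 4.83, 4.75 and 4.30 FPKM against 6.30, 6.22 and 6.20 in WT, without overlap. This difference missed the threshold (-0.36 ± 0.13, adjusted p = 0.053) and passed with 5 of 7 other settings (adjusted p = 0.031 to 0.049), the exceptions being a pseudocount of 0.1 and upper-quartile scaling (adjusted p = 0.0501 and 0.0519). WT had fallen 1.48 ± 0.269-fold with storage (adjusted p = 0.0034), while *Cmnor* read 6.24, 8.63 and 6.70 FPKM at 36 DAP and did not pass (adjusted p = 0.65).

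MELO3C011043.2, annotated as alcohol dehydrogenase-like 2, was the lowest of the 10 genes and the one that did not reach 1 FPKM in 3 libraries. It was at its highest in WT at 39 DAP, with 1.05, 0.848 and 1.47 FPKM, about 52, 41 and 63 fragments for an assumed transcript of 1508 nt. That length was the shortest at which all its values of up to 20 fragments came within 0.1 of whole fragments. It is not an annotated length. Stored WT flesh followed with 0.476, 0.484 and 0.219 FPKM, or 20, 20 and 11 fragments. The *Cmnor* libraries held at most 8 fragments, and 5 libraries in all were listed at 0. At 39 DAP *CmNOR/Cmnor* read 0.155, 0.322 and 0.139 FPKM and *Cmnor* 0.108, 0 and 0.0204, both below every WT library (log2 difference -0.81 ± 0.09, adjusted p = 7.1e-08, and -1.02 ± 0.09, adjusted p = 5.4e-11). The differences from WT after storage were smaller (-0.32 ± 0.09, adjusted p = 0.019, for *CmNOR/Cmnor* with overlap, and -0.35 ± 0.09, adjusted p = 9.6e-04, for *Cmnor*), and the first did not pass without WT replicate 1 or 2 or *CmNOR/Cmnor* replicate 2 or 3 after storage (-0.27, -0.27, -0.29 and -0.27). The WT rise with storage (0.28 ± 0.09, adjusted p = 0.012) did not pass without replicate 1 or 2 of the stored libraries (0.24 and 0.23). The 39 against 33 DAP change of *Cmnor* minus that of WT was -0.99 ± 0.12 (adjusted p = 2.7e-07).

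**Figure D3:**
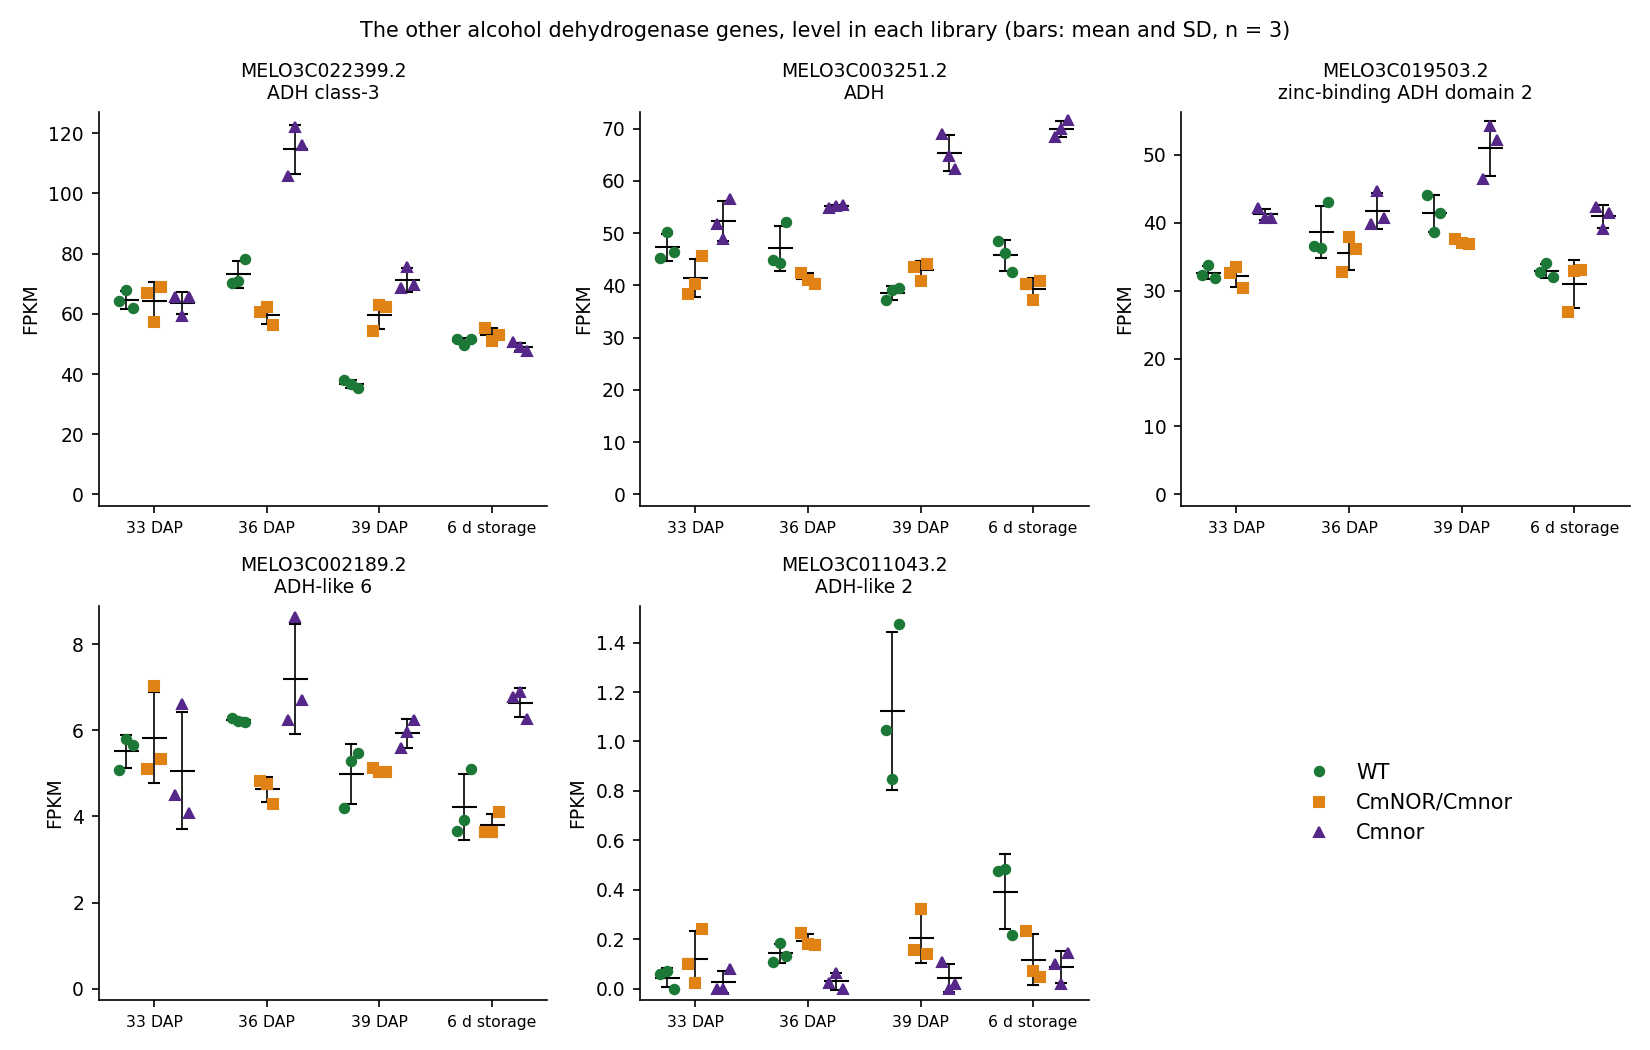
Levels of the other 5 alcohol dehydrogenase genes in each library, in FPKM on linear axes, by stage and genotype; points are the 3 libraries of a group, horizontal bars their mean and vertical bars the SD. MELO3C022399.2 falls to 35.2 to 38.0 FPKM in WT at 39 DAP, and MELO3C011043.2 exceeds 0.8 FPKM only in the 3 WT libraries at 39 DAP.

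Counted together, 4 of the 10 genes were higher and 2 lower in *Cmnor* than in WT at 33 DAP, where 48.1% of all tested genes were called higher and 15.5% lower. At 36 DAP the counts were also 4 higher and 2 lower (46.3% and 16.5% of all genes), at 39 DAP 6 higher and 3 lower (39.6% and 22.9%) and after storage 6 higher and 3 lower (44.5% and 17.4%). Called in either direction were 6 of the 10 genes at 33 and 36 DAP (63.5 and 62.8% of all genes) and 9 of the 10 at 39 DAP and after storage (62.5 and 61.8%). The median log2 difference of the 10 genes was 0.06, 0.15, 0.48 and 0.42, against 0.52, 0.49, 0.31 and 0.45 for the expressed genes and 0.21, 0.17, 0.06 and 0.14 for all tested genes, which include near-silent ones. It lay above the shift of the expressed genes at 39 DAP and below it at the other stages. The same 4 genes kept their direction and passed the test at all 4 stages under both scalings: MELO3C009145.2 and MELO3C026553.2 lower, MELO3C023685.2 and MELO3C026554.2 higher. With scaling to the same median the counts became 2 higher and 6 lower at 33 and 36 DAP, 5 and 3 at 39 DAP and 2 and 5 after storage, where all genes split into 32.1% and 27.4%, 31.0% and 28.6%, 31.3% and 30.2%, and 28.6% and 31.4%.

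Between *CmNOR/Cmnor* and WT, 0 genes were higher and 4 lower at 33 DAP (8.66% and 11.7% of all genes) and 0 higher and 3 lower at 36 DAP (6.90% and 8.96%). At 39 DAP 1 was higher and 4 were lower (8.20% and 14.4%), and after storage 0 were higher and 3 lower (2.81% and 8.16%). At 39 DAP both scalings added MELO3C026554.2 and MELO3C003251.2 to the higher genes, which gave 3 higher and 4 lower with upper-quartile scaling and 3 higher and 3 lower with scaling to the same median. With a log2 fold of at least 1 required, 5 of the 10 genes at 39 DAP (28.4% of all genes) and 4 after storage (28.2%) remained called in *Cmnor*. In *CmNOR/Cmnor* the numbers were 0 at 33 DAP (2.86%), 0 at 36 DAP (2.28%), 1 at 39 DAP (3.41%) and 0 after storage (1.36%), and for storage they were 3 in WT (8.29%) and 3 in *CmNOR/Cmnor* (7.90%). The count between *CmNOR/Cmnor* and WT after storage was 1 when *CmNOR/Cmnor* replicate 2 or WT replicate 1 or 2 of that stage was left out.

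**Figure D4:**
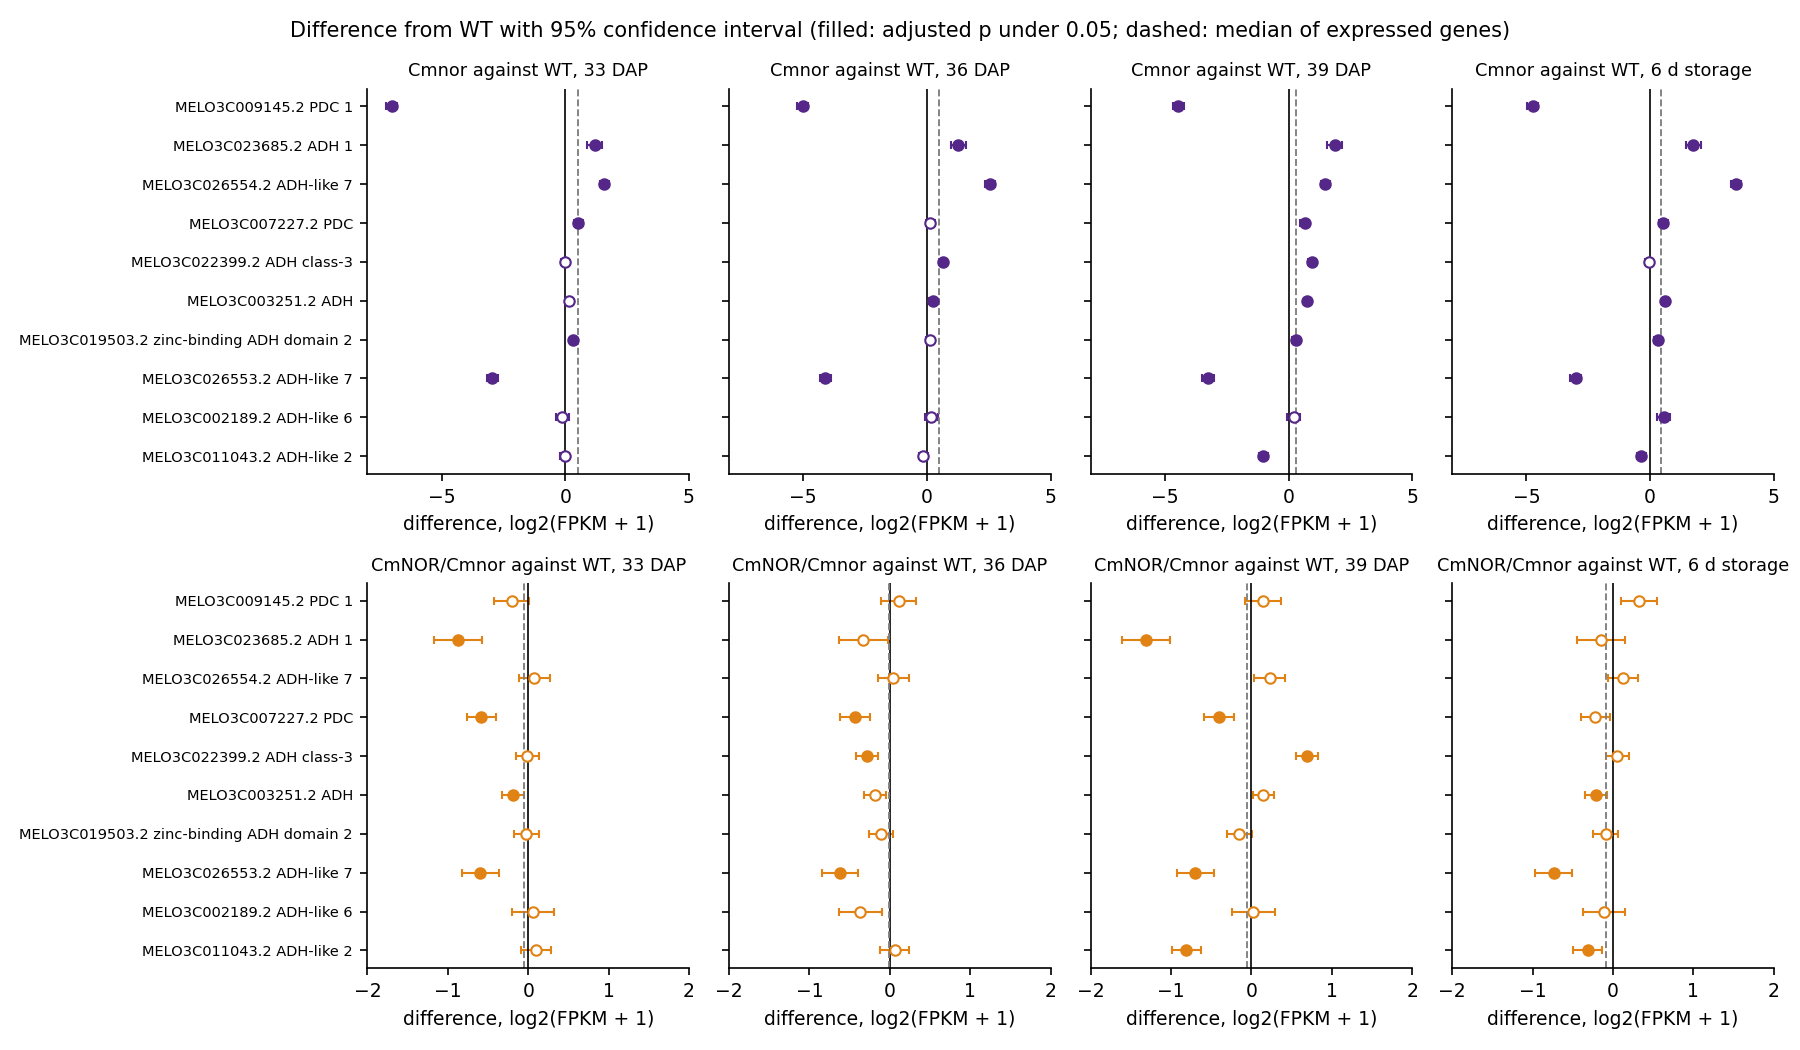
Difference of *Cmnor* (upper row) and *CmNOR/Cmnor* (lower row, narrower axis) from WT at each stage for the 10 genes, on the log2(FPKM + 1) scale; points are fitted differences, bars the 95% confidence interval, filled points passed an adjusted p of 0.05, and the dashed line is the median of 15407 expressed genes. In *Cmnor* MELO3C009145.2 lies between -7.02 and -4.46 and MELO3C026553.2 between -4.10 and -2.95, MELO3C023685.2 and MELO3C026554.2 lie above the dashed line at all stages, and in *CmNOR/Cmnor* MELO3C026553.2 is filled at all 4 stages.

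Summed by the name in the description, the PDC level was 4199 ± 160 FPKM in WT, 3639 ± 321 in *CmNOR/Cmnor* and 104 ± 7.39 in *Cmnor* at 33 DAP, and 6589 ± 89.0, 8243 ± 947 and 403 ± 7.06 FPKM after storage. The summed level of the 8 ADH genes was 350 ± 6.00, 300.5 ± 6.09 and 601 ± 8.30 FPKM at 33 DAP, and 447 ± 8.61, 408 ± 59.6 and 1399 ± 112 FPKM after storage. PDC transcript thus exceeded ADH transcript in each WT and *CmNOR/Cmnor* library and lay below it in each *Cmnor* library. The ratio of the sums was 12.01 ± 0.479 in WT at 33 DAP, 6.50 ± 1.04 at 36 DAP, 6.04 ± 0.345 at 39 DAP and 14.7 ± 0.146 after storage. In *Cmnor* it was 0.173 ± 0.0137, 0.171 ± 0.0116, 0.227 ± 0.0165 and 0.289 ± 0.0191. The ratio within a library does not depend on its scaling, but it depends on the genes summed. The ADH sum holds MELO3C019503.2, whose label is not borne out, and the class-3 matches MELO3C022399.2 and MELO3C003251.2. In WT at 33 DAP these averaged 32.6, 64.7 and 47.3 FPKM, so that the ADH sum is not that of a single enzyme activity. The share of MELO3C023685.2 in the ADH sum was 21.9 ± 1.58%, 19.2 ± 0.674%, 40.5 ± 1.17% and 50.8 ± 1.89% in WT from 33 DAP to storage. In *CmNOR/Cmnor* its share was 13.8 ± 1.92%, 17.6 ± 1.59%, 19.9 ± 1.11% and 50.8 ± 6.32%, and in *Cmnor* 29.4 ± 2.29%, 18.3 ± 2.67%, 58.9 ± 2.52% and 55.0 ± 1.91%. The share was lowest at 36 DAP in WT and *Cmnor* and was highest at 39 DAP in *Cmnor*.

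**Figure D5:**
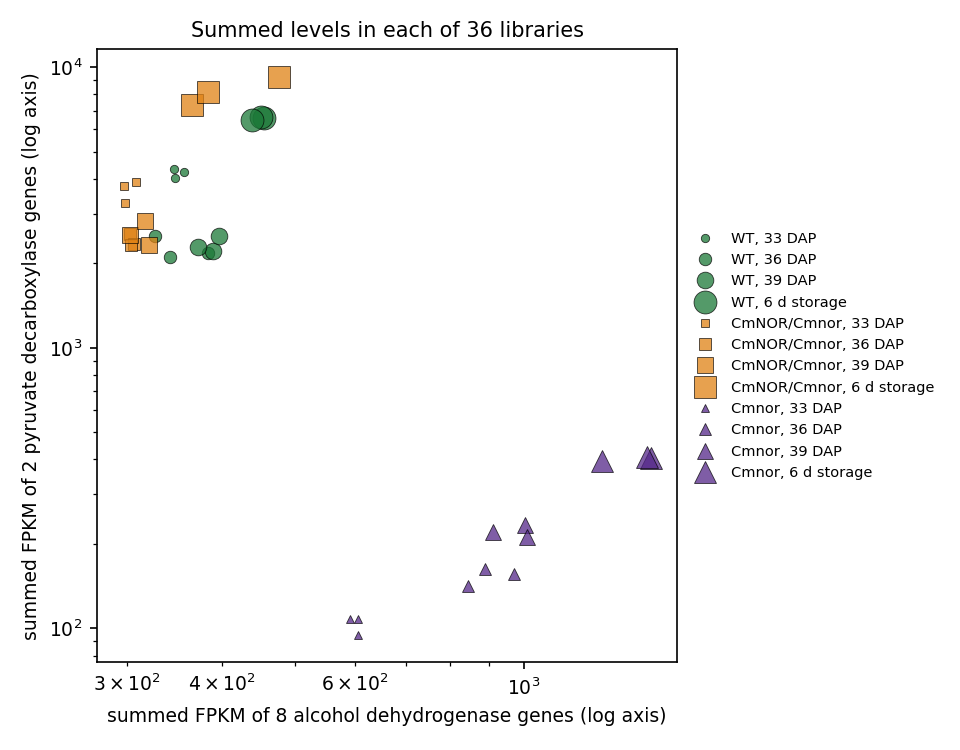
Summed FPKM of the 2 pyruvate decarboxylase genes against that of the 8 alcohol dehydrogenase genes in each of the 36 libraries, on log axes; colour and shape mark the genotype and marker size the stage. The 12 *Cmnor* libraries form a group at the lower right (95.05 to 409 FPKM of PDC), apart from the WT and *CmNOR/Cmnor* libraries (2108 to 9216 FPKM).

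With storage, 5 of the 10 genes rose and 4 fell in WT, where 38.3% of all genes were called in either direction. In *CmNOR/Cmnor* 4 rose and 2 fell (35.7% of all genes), and in *Cmnor* 5 rose and 1 fell (47.1%). MELO3C009145.2, MELO3C007227.2, MELO3C023685.2 and MELO3C026553.2 rose in each genotype. The rise of MELO3C026553.2 in *CmNOR/Cmnor* (0.47 ± 0.11, adjusted p = 0.0012) did not pass when only the 6 libraries compared were fitted (adjusted p = 0.066). The storage response of *Cmnor* differed from that of WT for 5 genes (45.9% of all genes): it was more positive for MELO3C026553.2 (1.08 ± 0.16), MELO3C026554.2 (0.93 ± 0.13), MELO3C007227.2 (0.40 ± 0.13) and MELO3C003251.2 (0.38 ± 0.09) and more negative for MELO3C022399.2 (-0.70 ± 0.10). That of MELO3C007227.2 did not pass with scaling to the same median. That of *CmNOR/Cmnor* differed from WT for MELO3C022399.2 alone (0.34 ± 0.10, adjusted p = 0.028, 6.60% of all genes), which did not pass with scaling to the same median. These contrasts share the WT libraries.

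The genes of the same wording outside the 10 were close to silent. MELO3C009885.2, a polyvinylalcohol dehydrogenase-like gene that matched by its letters, reached 0.722 FPKM at most. The remaining PDC genes, MELO3C020531.2 and MELO3C026005.2, averaged 0.0036 and 0.0024 FPKM and were above 0 in 5 libraries each, and the ADH genes MELO3C027151.2 and MELO3C005792.2 averaged 0.0263 and 0.0013 FPKM. Of the 6 genes left out by the words cinnamyl or mannitol, 4 were higher and 1 lower in *Cmnor* at 33 DAP (48.1% and 15.5% of all genes) and at 36 DAP (46.3% and 16.5%). The counts were 3 and 2 at 39 DAP (39.6% and 22.9%) and 2 and 2 after storage (44.5% and 17.4%). The lower one at 36 DAP, MELO3C018492.2, a cinnamyl alcohol dehydrogenase 1-like gene of the lignin monomer pathway by its name, averaged 116 FPKM against 1197 in WT (log2 difference -3.36 ± 0.13, adjusted p = 1.9e-18), while MELO3C019548.2 of the same name rose from 10.8 to 85.9 FPKM (2.88 ± 0.16, adjusted p = 2.3e-15).

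Genes of the steps around PDC and ADH were counted at 36 DAP in *Cmnor* against WT, where 46.3% of all tested genes were higher and 16.5% lower. The median there was 0.17 over all tested genes and 0.49 over the expressed genes. At the other stages these shares were 48.1% and 15.5% (33 DAP), 39.6% and 22.9% (39 DAP) and 44.5% and 17.4% (storage). The lists were read as deposited and not under the scalings, so that their differences include the shift of the expressed genes. Of 16 aldehyde dehydrogenase genes, which oxidize aldehydes to acids, 6 were higher and 6 lower (median log2 difference -0.01). At 33 DAP 9 of these genes were higher and 2 lower (median 0.37, shift of the expressed genes 0.52). The numbers were 9 and 1 at 39 DAP (0.50, shift 0.31) and 9 and 5 after storage (0.59, shift 0.45). The difference between stages was not tested. MELO3C004383.2, of family 2 and mitochondrial by name, stood at 100 FPKM against 5.22 in WT (4.03 ± 0.10, adjusted p = 4.7e-23), and MELO3C024345.2, of family 7, at 223 against 48.7 FPKM (2.17 ± 0.09, adjusted p = 8.4e-18). Of 9 genes described as parts of pyruvate dehydrogenase complexes, which turn pyruvate into acetyl-CoA and are named as mitochondrial or chloroplastic in all descriptions but 1, 2 were higher and 5 lower (median -0.22), and at the other stages 2 or 3 were higher and 6 lower (median -0.65 to -0.27). Of 2 lactate dehydrogenase genes 1 was higher and 1 lower, as after storage, while 2 were higher at 33 DAP and 1 at 39 DAP with none lower. At 36 DAP MELO3C005539.2, an L-lactate dehydrogenase, stood at 35.7 against 2.97 FPKM (3.21 ± 0.15, adjusted p = 4.3e-17).

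Of 4 genes annotated as benzyl alcohol O-benzoyltransferase, a group of alcohol acyltransferases, 3 were higher and 1 lower at 36 DAP (median 0.44), and 1 or 2 were higher and 1 or 2 lower at the other stages (median -0.11 to 0.04). The lower one, MELO3C024771.2, was the most abundant, with 12204 ± 265 FPKM in WT, 13632 ± 273 in *CmNOR/Cmnor* and 66.2 ± 21.9 in *Cmnor* (log2 difference of *Cmnor* from WT -7.55 ± 0.25, adjusted p = 3.9e-20). Of 34 genes for aldehyde supply (lipoxygenases, a hydroperoxide lyase and branched-chain or aromatic aminotransferases) 15 were higher and 4 lower (median 0.11), and at the other stages 12 to 18 were higher and 4 to 9 lower (median 0.02 to 0.23). The lowest at 36 DAP was MELO3C010776.2, a branched-chain amino acid aminotransferase, at 49.5 ± 10.5 against 6911 ± 693 FPKM (-7.11 ± 0.20, adjusted p = 1.3e-21). A low-oxygen list of 18 genes was drawn by words in the descriptions, among them cysteine oxidase, hypoxia, RAP2-12, alanine aminotransferase and sucrose synthase. Sucrose synthases also belong to sucrose metabolism, where the study places MELO3C025101.2, and a response to low oxygen was not tested. Of these 18 genes 7 were higher and 5 lower (median 0.02), and at the other stages 7 or 8 were higher and 3 to 6 lower (median -0.09 to 0.15). Among them at 36 DAP were MELO3C024315.2, a RAP2-12-like ethylene response factor of the oxygen-sensing group, at 558 against 277 FPKM (1.010 ± 0.065, adjusted p = 9.6e-14), MELO3C025101.2, sucrose synthase 5, at 169 against 17.1 FPKM (3.16 ± 0.21, adjusted p = 2.3e-13), and MELO3C015552.2, another sucrose synthase, at 10.7 against 66.1 FPKM (-2.51 ± 0.14, adjusted p = 2.1e-15).

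By the Pearson correlation of the 12 group means of log2(FPKM + 1) among 11248 genes that averaged 5 FPKM or more, the genes most like MELO3C009145.2 were MELO3C005556.2, an adenine phosphoribosyltransferase 3-like gene (r = 0.99), MELO3C008063.2, an alpha subunit of the 2-oxoisovalerate dehydrogenase complex that degrades branched-chain amino acids (r = 0.99), and MELO3C008717.2, an isopentenyl-diphosphate isomerase gene (r = 0.99). For MELO3C023685.2 they were MELO3C021605.2, a mitochondrial inner membrane protease (r = 0.94), MELO3C002349.2, adenylate kinase 4 (r = 0.93), and MELO3C019817.2, a probable S-acyltransferase (r = 0.93). Among the 9 of the 10 genes that averaged 5 FPKM or more, MELO3C009145.2 followed MELO3C026553.2 most closely (r = 0.93) and ran against MELO3C026554.2 (r = -0.89), and MELO3C023685.2 followed MELO3C007227.2 (r = 0.90). These values describe 12 groups that share genotypes and stages.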

How the data were processed

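The table of FPKM values, 1 per gene and library, was used as deposited. By the study's methods the authors made TruSeq libraries from flesh, sequenced them on an Illumina platform and mapped the reads with HISAT2 on release v3.6.1 of the DHL92 melon genome. The labels add TopHat2, StringTie and Cufflinks without a version or role. The sources do not state how fragments were counted, divided among copies or assigned to strands, and no read counts were used. Of 25121 named genes, 220 had no value above 0 and the other 24901 entered the tests.

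A single linear model over the 36 libraries, with 1 mean for each of 12 groups and no covariate, was fitted to log2(FPKM + 1) with limma 3.58.1 (R 4.3.3, prior variance following the mean). A call is an adjusted p under 0.05, and the 95% confidence intervals come from the same model. Groups followed genotype and stage in the labels, and stored fruits were compared with 36 DAP. The fit was tested on simulated data. Alternatives were a pseudocount of 0.1, upper-quartile scaling, scaling to the same median, a filter of 1 FPKM in 3 libraries, a replicate block, no variance trend, only the libraries compared, other thresholds and each library left out in turn. Named genes were the 10, the next by mean level, the highest change, lowest change and highest level of each related list at 36 DAP (those not shown lie within the counts given), and the 3 genes most like PDC1 and ADH1. The genes beside the alcohol dehydrogenase-like 7 pair and the other genes of the wording were named after their values were seen. The members and lists were chosen with earlier results of these data known.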

Additional observations from a re-analysis of the deposited data

Results flagged for a closer look

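A pair of differences between genotypes stood out in size. The storage response of MELO3C026553.2, an alcohol dehydrogenase-like 7 gene, was 1.08 log2 units more positive in *Cmnor* than in WT (standard error 0.16, limma adjusted p = 1.9e-06), since it went from 0.816 ± 0.235 to 4.82 ± 1.08 FPKM in *Cmnor* and from 30.0 ± 2.43 to 45.6 ± 3.48 FPKM in WT (SD, n = 3). The change of MELO3C009145.2, pyruvate decarboxylase 1, from 33 to 39 DAP was 2.56 log2 units more positive in *Cmnor* than in WT (standard error 0.15, limma adjusted p = 5.3e-13), with a rise from 30.9 ± 1.49 to 102 ± 15.7 FPKM in *Cmnor* and a fall from 4149 ± 163 to 2258 ± 159 FPKM in WT.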

How the results depend on the processing

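Of 66 differences of single genes called in 11 comparisons, the direction and the call held for 66 with a pseudocount of 0.1, 66 without a variance trend, 56 with upper-quartile scaling, 51 with scaling to the same median and 57 with the 6 libraries compared alone. The filter on low values removed MELO3C011043.2, and all 61 calls of the other 9 genes held. With 1 library left out at a time, calls held 377 times and were lost 19 times. Between *Cmnor* and WT, scaling to the same median turned the sign of MELO3C007227.2 at 33 DAP (-0.11) and after storage (-0.14), of MELO3C003251.2 at 36 DAP (-0.41) and after storage (-0.051), of MELO3C019503.2 at 33 DAP (-0.30), 39 DAP (-0.094) and after storage (-0.34), and of MELO3C002189.2 after storage (-0.00047). Upper-quartile scaling turned MELO3C003251.2 at 36 DAP (-0.17) and MELO3C019503.2 at 33 DAP (-0.064) and after storage (-0.093). With a log2 fold of at least 1 required, the count of the 10 genes called between *Cmnor* and WT fell from 9 to 5 at 39 DAP and from 9 to 4 after storage. Between *CmNOR/Cmnor* and WT it fell from 4 to 0 at 33 DAP, from 3 to 0 at 36 DAP, from 5 to 1 at 39 DAP and from 3 to 0 after storage. With storage it fell from 9 to 3 in WT and from 6 to 3 in *CmNOR/Cmnor*. The 3 calls between *CmNOR/Cmnor* and WT after storage also became 1 at an adjusted p under 0.01, 0 with only the 6 libraries compared, and 1 to 3 when 1 library was left out. The same 10 genes were chosen by the median, by the highest group mean and by the WT mean.

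The replicate numbers did not pair the libraries, since 9 of 36 same-numbered pairs of a stage had a residual correlation over 0.1 and 12 of 36 libraries lay closest to their own number. With a replicate block all 66 calls held, and the count of genes called between *CmNOR/Cmnor* and WT was 4 in place of 3 both at 36 DAP and after storage. Values near 0.1 FPKM rest on a few fragments, which limits MELO3C011043.2.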
